A study of Drosophila melanogaster with 4 samples.

Results

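The 6 genes described here, GstE2, GstE3, GstE4, GstE5, GstE7 and GstE8, code for glutathione S-transferases of the epsilon class in Drosophila melanogaster. They were taken by their symbols from the 2049 genes of the deposited read count table. Total RNA, after removal of ribosomal RNA, was sequenced in S2 cells, an embryo-derived Drosophila line with features of blood cells, after 4 h in either of 2 media. The control cells were kept in Schneider's medium (the FED libraries), the serum-supplemented medium in which the line is grown. The other cells were kept in Krebs Ringer Bicarbonate buffer (KRB, the STARVATION libraries), which has no amino acids and no serum but holds glucose and more sodium. Each medium had 2 libraries, described as biological replicates of this single line, with nothing in the labels on whether the cultures were run on separate days. The effects of lost amino acids, lost serum and higher sodium cannot be told apart in this design.

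Glutathione S-transferases join the tripeptide glutathione to reactive, electrophilic compounds, which makes these compounds more soluble and easier to export. The epsilon and delta classes are expanded in insects and are best known for the detoxification of insecticides and of reactive aldehydes from oxidised lipids. In the mosquito Anopheles gambiae, an epsilon-class enzyme takes part in resistance to the insecticide DDT. The sequencing asked, across the transcriptome, which responses the KRB treatment brings about besides those already followed in these cells.

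The table is a list of genes that had already been selected for their change between the same 4 libraries. None of its 2049 rows had a deposited absolute log2 fold change under 1, and none had a deposited p of 0.05 or more. The listed genes held 1108029 to 2801713 reads per library, and the full depth of the libraries is unknown. In the test over the table (edgeR's quasi-likelihood test), 1756 genes were tested, and the biological coefficient of variation was 0.207. Of hemocyte markers, 3 of 11 were in the table, Sr-CI, eater and PPO1, and their summed normalized count was 1938 and 1074 in Schneider's medium and 755 and 415 in KRB. Sr-CI and eater were lower in KRB. PPO1, with few reads, went the other way, with 1.22 and 0.595 in Schneider's medium and 6.76 and 6.11 in KRB. Of the neuron markers 1 of 5 was listed (brp), of the muscle markers 1 of 6 (Mlc2), and of the fat body and germline markers 0 of 6 and 0 of 5. The part of these markers in the results was not tested, and the identity of the line cannot be checked on a table of selected genes.

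Under the main library scaling (TMM), all 6 genes had more reads in KRB than in Schneider's medium, relative to the other listed RNAs. GstE3, the most abundant of them, and GstE7 rose 5.40-fold and 5.99-fold in the fit, whereas GstE2 and GstE8 rose 2.52-fold and 2.60-fold. The size of these folds depends on how the libraries are scaled. GstE4 and GstE5 were read rarely in both media and rose as well, with wide errors. With an adjusted p under 0.05, 6 of the 6 genes were higher in KRB, where 42.3% of all tested genes were called higher and 53.6% lower. GstE4 and GstE5 entered this count only because their KRB reads took them past the filter on low counts. Because the authors had listed only genes that changed between these libraries, the calls of the 6 genes are not independent evidence. In normalized counts under the main scaling, the lower KRB library exceeded the higher Schneider's library for each of the 6 genes. This also held for 42.5% of the tested genes. In bulk RNA, less RNA per cell and fewer cells cannot be told apart, so the values are relative to the other listed RNAs. They also carry the main scaling and are not plain shares of the listed reads. With libraries scaled by total listed counts, 4 of the 6 genes were called higher. The log2 rise of GstE2 was then 0.36 with a standard error of 0.30.

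GstE3 (FBgn0063497) is a gene of a single exon on the plus strand of chromosome 2R, at 18400713 to 18401467 of BDGP6, with 755 nt of exon and a protein of 220 residues. Its reads numbered 700 and 819 in the Schneider's libraries and 2842 and 3317 in those of KRB. Divided by the relative library sizes, these were normalized counts of 855 and 487 in Schneider's medium and 3845 and 3376 in KRB. The 2 media did not overlap, although Schneider's replicate 1 stood well above replicate 2. The mean rose from 671 ± 260.0 (SD, n = 2) to 3610 ± 332 (SD, n = 2). In the fit this was 2.43 on the log2 scale, with a standard error of 0.29 and a Benjamini-Hochberg adjusted p of 0.00117 (edgeR). By mean count, GstE3 was number 154 of the 2049 listed genes, and no other of the 6 genes stood above number 315.

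GstE7 (FBgn0063493, 18406924 to 18407688) has 1 exon of 765 nt and codes for 223 residues. Its reads numbered 183 and 416 in Schneider's medium and 1009 and 1436 in KRB. The normalized counts were 223 and 247 in Schneider's medium and 1365 and 1461 in KRB, so that the replicates of each medium lay close together. The mean rose from 235 ± 16.9 (SD, n = 2) to 1413 ± 68.0 (SD, n = 2). On the log2 scale GstE7 rose by 2.58 with a standard error of 0.16. Its adjusted p of 0.000603 (edgeR) was the lowest among the 6 genes.

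GstE8 (FBgn0063492, 18407834 to 18408955) starts 145 nt downstream of the end of GstE7. It has 2 annotated transcripts of 1 exon each, of 758 and 1122 nt, which share the coding sequence of 222 residues and differ in the length of the 3′ untranslated region. The Schneider's libraries held 340 and 667 of its reads and the KRB libraries 788 and 1025. The normalized counts were 415 and 397 in Schneider's medium and 1066 and 1043 in KRB. Of the 6 genes it had the closest replicates, with means of 406 ± 13.1 (SD, n = 2) and 1055 ± 16.3 (SD, n = 2). The fitted rise was 1.38 on the log2 scale, with a standard error of 0.15 and an adjusted p of 0.000992 (edgeR). With libraries scaled by their total listed counts, the value was 0.40 with a standard error of 0.15, and it did not pass (adjusted p = 0.0528).

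GstE2 (FBgn0063498, 18399486 to 18400375) is the first of the 6 genes along the chromosome, with 1 exon of 890 nt and 221 residues. It was counted 337 and 461 times in Schneider's medium and 734 and 715 times in KRB. Its normalized counts were 412 and 274 in Schneider's medium and 993 and 728 in KRB, with replicate 1 above replicate 2 in both media. The mean rose from 343 ± 97.1 (SD, n = 2) to 860 ± 188 (SD, n = 2). The rise on the log2 scale was 1.33 with a standard error of 0.26 (adjusted p = 0.00406, edgeR). With total listed counts as library sizes, GstE2 did not pass either, with a value of 0.36 and a standard error of 0.30 (adjusted p = 0.297).

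GstE4 (FBgn0063496, 18403248 to 18404086) has 1 exon of 839 nt and codes for 222 residues. Only 4 and 2 reads fell on it in Schneider's medium, against 22 and 19 in KRB, or 4.88, 1.19, 29.8 and 19.3 normalized counts in this order. The fold over pooled reads was 9.92, with a 95% counting interval of 4.19 to 28.6 (Clopper-Pearson). The fit gave a log2 rise of 3.22 with a standard error of 0.62 (adjusted p = 0.00393, edgeR). The few Schneider's reads set this size: without Schneider's replicate 1 the log2 fold change was 4.22, and without Schneider's replicate 2 it was 2.27.

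GstE5 (FBgn0063495, 18404605 to 18405338) has 1 exon of 734 nt and also codes for 222 residues. Its reads were 6 and 8 in Schneider's medium against 16 and 27 in KRB, with normalized counts of 7.33 and 4.76 against 21.6 and 27.5. The fold over pooled reads was 4.46, with a 95% counting interval of 2.39 to 8.83. GstE5 rose by 2.09 on the log2 scale with a standard error of 0.41 (adjusted p = 0.00412, edgeR). GstE4 reached the minimum of the filter on low counts only in the KRB libraries, and GstE5 in both KRB libraries and in 1 of the 2 Schneider's libraries. These 2 genes were therefore tested because they were high in KRB, while the other 4 passed the filter in every library.

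**Figure D1:**
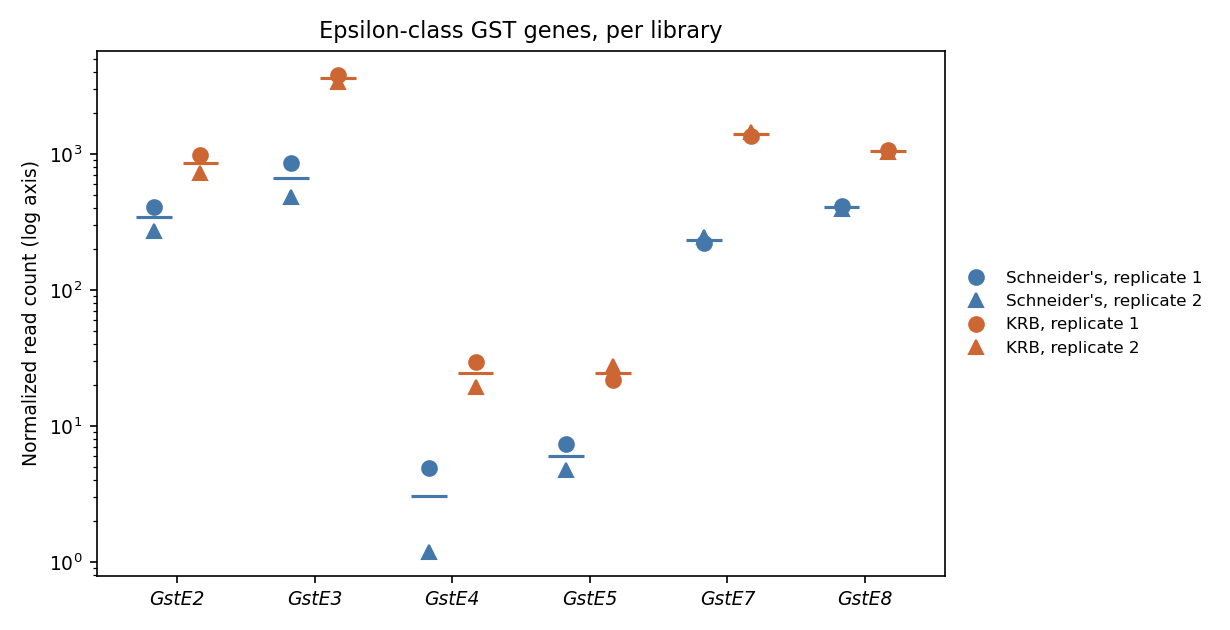
Normalized read counts (log axis) of the 6 epsilon-class genes in the 4 libraries, with circles for replicate 1, triangles for replicate 2 and a line at each mean of 2 libraries. The KRB points of each gene lie above its Schneider's points, and GstE4 and GstE5 lie far below the other 4 genes in both media.

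Read together, the 6 genes had 1570 and 2373 reads with Schneider's medium, against 5411 and 6539 with KRB. As a share of all listed reads, this was 0.142% and 0.0983% in Schneider's medium and 0.276% and 0.233% in KRB, with 95% Wilson intervals that reached at most from 0.0944% to 0.149% in Schneider's medium and from 0.228% to 0.284% in KRB. The normalized sum rose from 1664 ± 358 (SD, n = 2) to 6988 ± 471 (SD, n = 2). The fitted log2 rise of the sum was 2.07 with a standard error of 0.20. It was 1.09 with total listed counts as library sizes and 2.79 with relative log expression factors. The intervals cover counting error only, since amplified reads are not independent molecules.

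Exact permutation of 2 libraries against 2 gave a two-sided p of 0.33 for each of the 6 genes, the smallest p that this design allows. The median log2 fold change of the 6 genes was 2.26, including GstE4 and GstE5, which were tested because they were high in KRB. It was -0.92 over all tested genes and 1.73 over the 742 genes called higher. Among these 742 genes, GstE4 was number 107 by log2 fold change, GstE7 number 172, GstE3 number 193 and GstE5 number 266. GstE8 and GstE2 were number 545 and number 573.

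Levels were compared between genes per kilobase of exon, as normalized counts per kb. In Schneider's medium GstE3 was highest with 889 ± 344 (SD, n = 2), followed by GstE2 with 385 ± 109, GstE8 with 362 ± 11.7 and GstE7 with 308 ± 22.1 (SD, n = 2 each). GstE5 and GstE4 followed with 8.23 ± 2.47 and 3.62 ± 3.11 (SD, n = 2). The libraries of GstE2 and GstE8 overlapped, and those of the other neighbours in this order did not. In KRB, GstE3 reached 4782 ± 439.8 per kb and GstE7 had moved to second place with 1847 ± 88.9, above GstE2 with 967 ± 211 and GstE8 with 940 ± 14.5 (SD, n = 2 each). GstE5 with 33.5 ± 5.62 and GstE4 with 29.3 ± 8.79 were last, and their libraries overlapped, as did those of GstE2 and GstE8. With the shorter transcript of GstE8 as its length, its level was 536 per kb in Schneider's medium and 1391 per kb in KRB, and it then stood above GstE2 in both media.

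The relative makeup of the epsilon-class reads can be compared between the media free of any scaling of the libraries. GstE3 took 44.6% and 34.5% of the reads of the 6 genes in Schneider's medium and 52.5% and 50.7% in KRB. GstE7 took 11.7% and 17.5% in Schneider's medium and 18.6% and 22.0% in KRB. The shares of these 2 genes were thus larger in both KRB libraries than in either Schneider's library. For GstE7 the nearest libraries, KRB replicate 1 and Schneider's replicate 2, did not differ beyond counting error. Their Wilson intervals overlapped, at 17.6% to 19.7% and 16.1% to 19.1%. The Wilson intervals of GstE3 did not overlap between the media. GstE2 took a smaller share in KRB instead, with 21.5% and 19.4% in Schneider's medium and 13.6% and 10.9% in KRB. GstE8 did so too, with 21.7% and 28.1% in Schneider's medium and 14.6% and 15.7% in KRB. The shares of GstE4 (0.0843% to 0.407%) and GstE5 (0.296% to 0.413%) were small in all 4 libraries. The GstE3 share differed between the media by 12.1 percentage points, which became 7.04 without Schneider's replicate 2. For GstE7 the difference of 5.71 points became 2.77 without Schneider's replicate 1 and 8.65 without Schneider's replicate 2. It was 7.37 without KRB replicate 1 and 4.05 without KRB replicate 2, so its size depends on the libraries of both media.

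**Figure D2:**
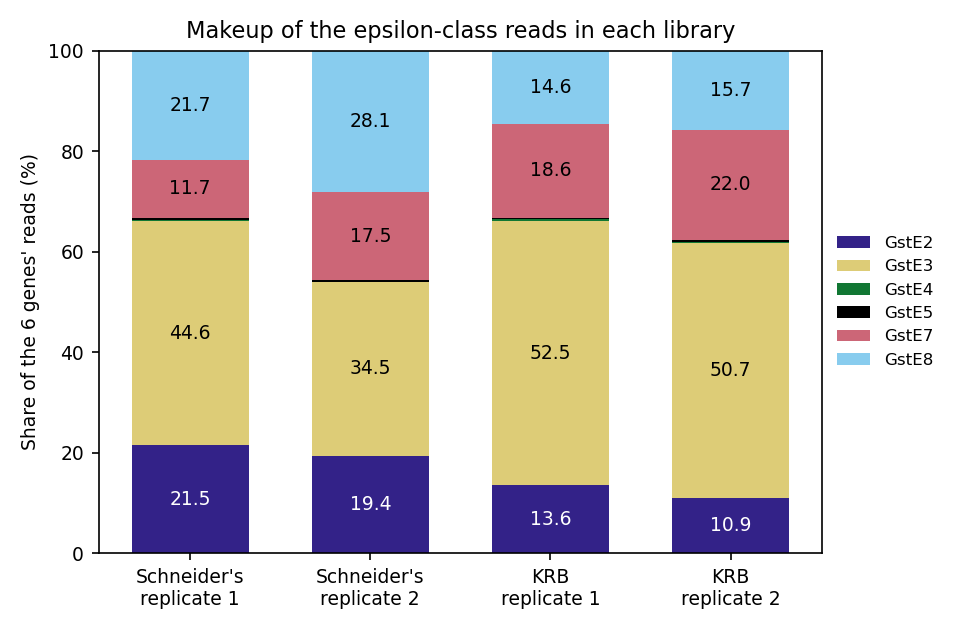
Stacked bars of the share (%) of each gene in the reads of the 6 genes, 1 bar per library. GstE3 and GstE7 take a larger part in KRB (52.5% and 18.6% in replicate 1) and GstE2 and GstE8 a smaller part (13.6% and 14.6%). For GstE7, the Wilson intervals of KRB replicate 1 and Schneider's replicate 2 overlap.

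The neighbours GstE7 and GstE8 changed order. In Schneider's medium there were 0.538 and 0.624 reads of GstE7 for each read of GstE8, and in KRB there were 1.28 and 1.40. The 95% counting intervals reached from 0.447 to 0.706 in Schneider's medium and from 1.17 to 1.52 in KRB. The log2 ratio changed by 1.21, against a pooled SD between replicates of 0.12. GstE2 and GstE3, which are 337 nt apart, also moved apart, from 0.481 and 0.563 reads of GstE2 per read of GstE3 to 0.258 and 0.216. This was a fall of the log2 ratio by 1.14, against an SD between replicates of 0.17. The ratio of GstE3 to GstE7 (3.83 and 1.97, then 2.82 and 2.31) and that of GstE2 to GstE8 (0.991 and 0.691, then 0.931 and 0.698) overlapped between the media. Over all 15 pairs, which share the same 6 genes, the ratio did not overlap between the media for 12 pairs and overlapped for 3, the third being GstE4 with GstE7. Such ratios also failed to overlap for 71.2% of all pairs of tested genes and for 52.9% of the pairs of genes called higher, so that this is common in the table. Pairs with GstE4 or GstE5 rest on few reads, and some of them separated by little. The ratio of GstE5 to GstE7 was 0.0328 and 0.0192, then 0.0159 and 0.0188. That of GstE3 to GstE4 was 175 and 409.5, then 129 and 174.6. For these and every other pair with GstE4 or GstE5, the 95% counting intervals overlapped between the media. The intervals stayed apart only for GstE2 with GstE3, GstE2 with GstE7, GstE3 with GstE8 and GstE7 with GstE8. These ratios are given as a description: the exact permutation p cannot go below 0.33 with 2 libraries against 2, and no other test was run on them.

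The genes also differed in how well their replicates matched. In Schneider's medium, the normalized count of replicate 1 was 1.75 times that of replicate 2 for GstE3 (95% counting interval 1.58 to 1.94) and 1.5 times for GstE2 (1.30 to 1.73). It was 0.903 times for GstE7 (0.755 to 1.08) and 1.05 times for GstE8 (0.916 to 1.19), intervals that include 1. In KRB the ratios were 1.36 for GstE2 (1.23 to 1.52) and 1.14 for GstE3 (1.08 to 1.20), and again those of GstE7 and GstE8 included 1, with 0.934 and 1.02. The counts of GstE4 and GstE5 were too low to show such a difference at this depth. Over 936 tested genes counted at least 100 times on average, the median of this ratio in Schneider's medium was 0.953, and GstE3 stood at percentile 95.4, GstE2 at 91.0, GstE8 at 66.5 and GstE7 at 40.4. In KRB, over 937 genes with a median of 0.991, GstE2 stood at percentile 90.4, GstE3 at 75.6, GstE8 at 57.0 and GstE7 at 38.0. The KRB ratio of GstE3 was thus beyond counting error but not far from those of other genes, and counting intervals leave out the variation between cultures. The replicate difference of GstE3 in Schneider's medium was smaller than its difference between the media, where the 4 pairs of libraries gave folds of 3.95 to 7.89.

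**Figure D3:**
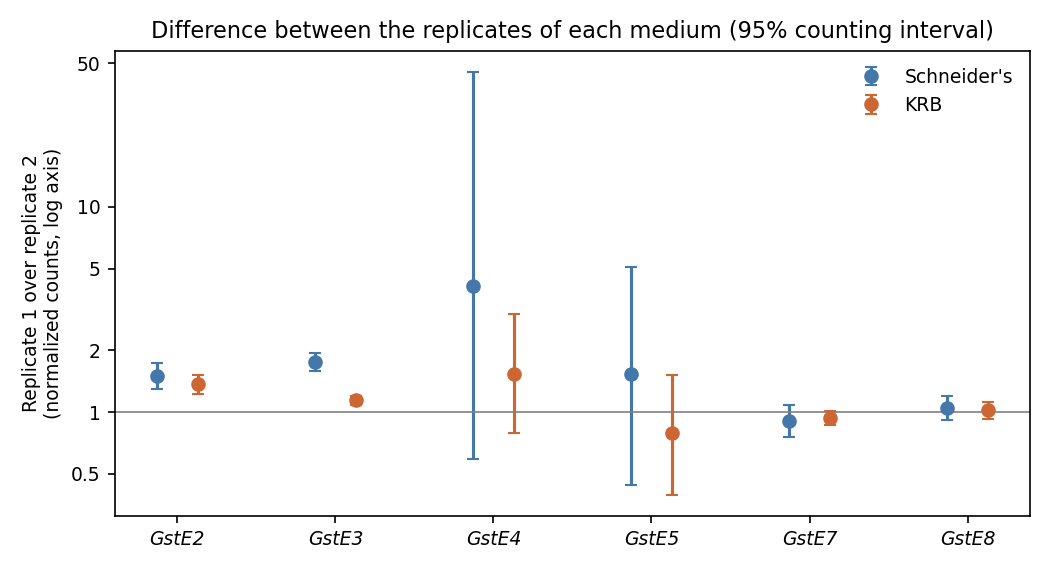
Ratio of replicate 1 to replicate 2 in normalized counts (log axis) for each gene in each medium, with 95% counting intervals. The intervals of GstE2 and GstE3 lie above 1 in both media, and those of GstE7 and GstE8 include 1.

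The 6 genes lie in a row on the plus strand of 2R, within 9470 nt, and none of them overlaps another annotated gene. Of the 14 annotated genes of the class, the other 8 (GstE1, GstE6 and GstE9 to GstE14) were not in the table under these symbols. They are not analysed here, so the rise is described for the 6 genes and not for the whole class. GstE6 lies between GstE5 and GstE7, and GstE1, GstE10 and GstE9 flank the row. The intervals between the 6 genes measured 337, 1780, 518, 1585 and 145 nt in order from GstE2. The members are related genes, and the division of reads that fit more than 1 of them is not given in the sources used here, so that their sum may depend on it as well.

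The interval between GstE3 and GstE4 holds 2 annotated pseudogenes on the same strand, CR43687 (18401846 to 18402297) and CR43688 (18402474 to 18402749), and both were in the table. CR43687 was read 4 and 3 times in Schneider's medium and 33 and 17 times in KRB, and rose by 3.33 on the log2 scale with a standard error of 0.71 (adjusted p = 0.00536, edgeR). Like GstE4, CR43687 reached the minimum of the filter on low counts only in KRB, so it was tested because it was high there. CR43688 was read 2 and 0 times in Schneider's medium and 9 and 6 times in KRB, and was removed by the filter on low counts. The reads of CR43687 came to 0.366% to 1.16% of those of GstE3, which ends 378 nt upstream of it. Within 20 kb of the row, 21 other genes are annotated and 3 of them were in the table, these 2 pseudogenes and Idgf5. Idgf5 (18393666 to 18395282), a gene of the imaginal disc growth factor family, was read 52 and 113 times in Schneider's medium and 17 and 18 times in KRB. It fell by 1.67 on the log2 scale with a standard error of 0.32 (adjusted p = 0.00368, edgeR), the opposite direction to the 6 genes.

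**Figure D4:**
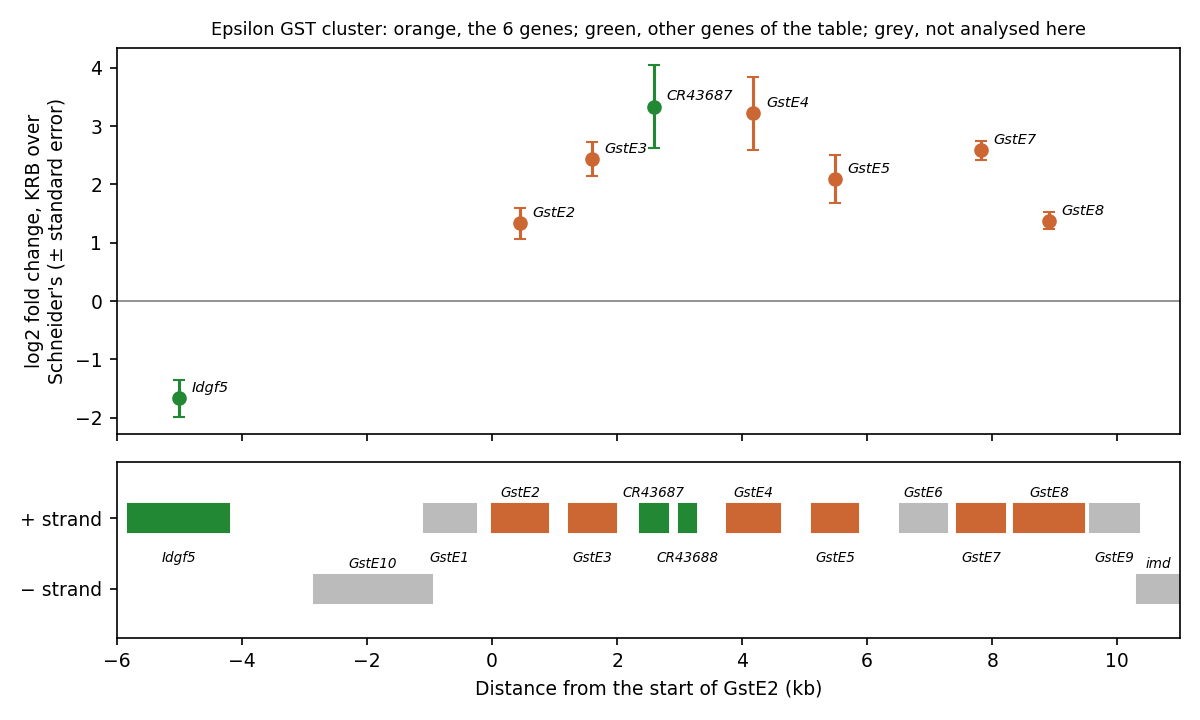
Annotated genes on both strands by distance from the start of GstE2 (kb, lower panel) and the log2 fold change with its standard error of those tested (upper panel). The 6 epsilon-class genes and CR43687 lie above 0 and Idgf5 below it (-1.67), and CR43688 was not tested. GstE4, GstE5 and CR43687 were tested because they were high in KRB.

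In the rest of the family, 17 other glutathione transferase genes were in the table. All 8 tested genes of the delta class were called higher, with a median log2 fold change of 2.70, and of the 8 genes of the omega, sigma, theta and zeta classes 5 were higher and 3 lower, with a median of 1.94. These stand beside 6 of 6 and 2.26 for the listed genes of the epsilon class, and no difference between the classes was tested. Over all tested genes, 42.3% were called higher. GstD10 and GstZ2, like GstE4 and GstE5, were tested because they were high in KRB, and the counts and medians of their classes include them. Only genes selected for change were listed, so these counts do not describe whole classes. Of the reads on all 23 listed glutathione transferase genes, the epsilon class held 28.3% and 22.5% in Schneider's medium and 30.8% and 25.0% in KRB. These shares overlapped between the media, and replicate 1 lay above replicate 2 in each. The largest log2 fold changes of the other classes, where genes averaged at least 50 reads, were those of GstD7 (4.11, standard error 0.43), GstD4 (2.81, standard error 0.38) and GstD5 (2.70, standard error 0.27), all of the delta class.

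Of 29 symbols listed for the synthesis and recycling of glutathione, 3 were in the table. Gclc, the catalytic subunit of the ligase that makes the first step of glutathione synthesis, had normalized counts of 2612 and 1784 in Schneider's medium and 7368 and 8801 in KRB. It rose by 1.88 on the log2 scale with a standard error of 0.23 (adjusted p = 0.00128, edgeR). Men, the malic enzyme, which makes NADPH, fell by 0.98 on the log2 scale (standard error 0.15), and CG1492 fell by 0.85 (standard error 0.22). Of 10 symbols for regulators of stress-induced genes, kay and Jra were in the table. Both were called higher, as were 42.3% of all tested genes, while cnc, the fly relative of NRF2, and its partner Keap1 are not analysed here. Of 19 symbols for other antioxidant enzymes, 3 were in the table, all peroxiredoxin genes. All 3 were called lower, as were 53.6% of all tested genes.

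The genes whose pattern over the 4 libraries was closest to the sum of the 6 genes were CG1146, CG13893, CR45807, CR43857 and CG11289. Likeness was the root mean square difference between log2 profiles centred on their own mean, over 933 candidates that averaged at least 100 reads. CG1146 was closest, at 0.034 log2 units, and CG11289 was the fifth at 0.10, while the median of the candidates was 1.52. CG1146 had normalized counts of 1656 and 1151 in Schneider's medium and 6252 and 5737 in KRB, beside 1917 and 1411, and 7321 and 6654, for the summed genes. Like the sum, CG1146 was higher in replicate 1 than in replicate 2 of each medium. With 4 libraries this is a description only.

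The size of each change moved with the scaling of the libraries, whereas the sign of its estimate did not. For GstE2 with total listed counts the value was 0.36 with a standard error of 0.30, which leaves its direction unsettled. The factors of the main scaling were 1.45 and 1.36 for Schneider's medium and 0.739 and 0.686 for KRB. Only genes selected for change were listed, so no scaling could be checked against unchanged genes. Relative to the main scaling, total listed counts shifted the log2 fold changes of all tested genes by -0.97 in the median, upper-quartile factors by 0.46 and relative log expression factors by 0.74. The log2 fold change of GstE3 ranged from 1.45 to 3.14 over these settings and DESeq2, that of GstE7 from 1.61 to 3.33 and that of GstE8 from 0.40 to 2.11. In each of these settings GstE2 and GstE8 had the smallest values of the 6 genes and GstE4 the largest.

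**Figure D5:**
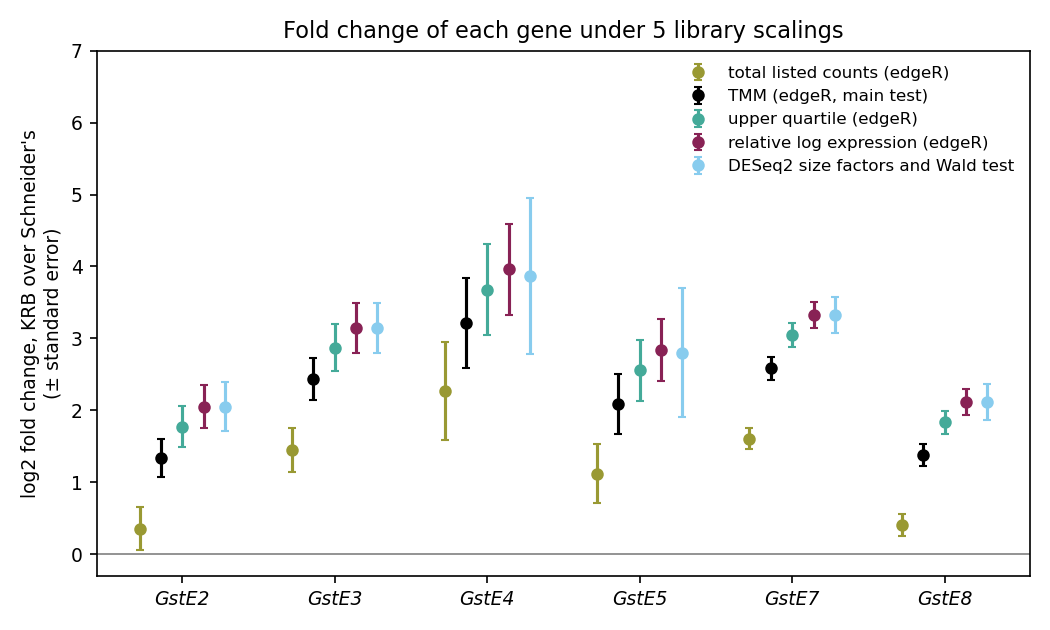
Log2 fold change in KRB relative to Schneider's medium for each gene, with bars for the standard error, under 4 library scalings in edgeR and under DESeq2. Total listed counts gave the lowest value of every gene (0.36 for GstE2, 0.40 for GstE8) and every value lies above 0.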

How the data were processed

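Mapping to Dm6 was done by the authors with STAR 2.4.0.1, counting per transcript with their in-house script, and the comparison with edgeR 3.24.3. The deposited values are raw whole-number read counts of a selected list of genes in each library. They also deposited a log2 fold change and a p-value per gene, used here only to check that selection. The libraries came from a stranded kit, but the use of strand in counting is not given in the sources used here.

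The whole table was fitted with edgeR 4.0.16 in R 4.3.3: filterByExpr at its defaults, which removed 293 genes, TMM scaling, the two-sided quasi-likelihood F-test with a single term for the medium, and p-values adjusted by Benjamini-Hochberg over 1756 genes. For normalized counts, reads were divided by each effective library size, itself expressed against the geometric mean of all 4. A standard error is the log2 fold change divided by the root of F. A called gene has an adjusted p under 0.05. Alternatives were DESeq2 1.42.0, other scalings and filters, a replicate block and the removal of each library. Where 1 library of a medium was left, it was assumed to vary like the other medium. The code was tested on simulated counts.

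Coordinates, exon lengths and overlaps are from the BDGP6 annotation (release 115), which has Dm6 coordinates. All 6 symbols matched it. No sequence was used. The genes described are the 6 named, the listed genes within 20 kb of them, the 5 with the most similar pattern, and from each pathway list up to 3 called genes with the largest change and a mean count of at least 50. GstE4, GstE5 and other genes below that mean were described as members or neighbours, and cell type markers by their lists. Ugt86Dc and Ugt86Di, also below that mean, were described outside this rule. The members and lists were chosen with earlier results of these data known. Summaries used Python 3.11.15 with numpy 2.4.6, pandas 2.3.3 and scipy 1.17.1. Figures used matplotlib 3.10.9.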

Additional observations from a re-analysis of the deposited data

How the results depend on the processing

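Of 72 recomputed log2 fold changes of the 6 genes, 70 kept their direction and their side of the threshold, and 2 kept the direction but lost the call, GstE2 and GstE8 with total listed counts, which left 4 genes called. When any 1 library was removed, 6 genes stayed called, and the log2 fold change of the summed reads ranged from 1.87 to 2.31. That sum was 1.09 with total listed counts, 2.52 with upper-quartile factors, and 2.79 with DESeq2 as well as with relative log expression factors. Over the whole table, the number of genes called higher was 335 with total listed counts and 649 to 732 when 1 library was removed. The number called lower was 547 with upper-quartile factors, 178 with relative log expression factors, 89 with DESeq2, and 549 to 898 when 1 library was removed, lowest without KRB replicate 1. By construction the scalings differ in the library sizes, and the cause of the further loss with DESeq2 was not tested. With a replicate block, 751 genes were higher and 1004 lower, and all 6 members stayed called. The correlation between media of the replicates' deviations was 0.30 across 1756 genes, and the labels tie the replicates by number alone. Scaling without the glutathione transferase genes, chosen after seeing the data, left 6 genes called. Depth limits GstE4 and GstE5, which had at most 8 reads in a Schneider's library.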

Other observations

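Other genes that handle glutathione conjugates or xenobiotics were in part listed. Of 15 symbols for export pumps of the ABC family, 3 were in the table. MRP, a pump of the family that exports glutathione conjugates in mammals, had normalized counts of 6475 and 5258 in Schneider's medium and 14392 and 18127 in KRB. It rose by 1.47 on the log2 scale with a standard error of 0.21 (adjusted p = 0.00174, edgeR). CG11897 was also higher (1.69, standard error 0.23), and CG9270 fell by 1.25 on the log2 scale (standard error 0.32). Of the regulators, kay (Fos) rose by 1.24 (standard error 0.26) and Jra (Jun) by 1.41 (standard error 0.16), again on the log2 scale.

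Of 48 symbols for UDP-glycosyltransferases, which join sugars to small molecules, 4 were in the table and 3 were tested. Ugt86Dc and Ugt86Di were called higher, as were 42.3% of all tested genes, and had at most 31 reads in a Schneider's library. Ugt86Dc, read 0 and 4 times in Schneider's medium and 10 and 22 times in KRB, was tested because it was high in KRB. Ugt86Dd, described after its values were seen, was read 85 and 6 times in Schneider's medium and 649 and 10 times in KRB. Its replicates thus differed by more than the media did, and it was not called (adjusted p = 0.136, edgeR's quasi-likelihood test).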
